A study of Mus musculus with 28 samples.

Results

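Ngfr, which encodes the p75 neurotrophin receptor, is described here together with 2 neurotrophin genes, Bdnf and Ntf3, and 2 Trk receptor genes, Ntrk2 and Ntrk3. These 5 genes were looked up by symbol among the 37620 genes of the count table, and they were chosen because Ngfr peaks early in reprogramming cells that carry K36M, so their levels in K36M cells and their differences between K36M and WT are given as descriptions without a test. Polyadenylated RNA was sequenced from 28 mouse libraries, 2 for each of 14 groups. The mutant groups were labelled K36M, a change of lysine to methionine at position 36 of histone H3, and comprised mouse embryonic fibroblasts (MEFs) at d0, reprogramming intermediates at d2, d4, d6 and d8, passaged induced pluripotent stem cells (iPSCs), and MEFs without OKSM, the reprogramming factor set. The reference groups were labelled WT at the same 7 stages, and their library names read H3_3. MEFs were grown in DMEM with 10% FBS, reprogramming took place in AGi medium and iPSCs were passaged in S/L medium, so the medium changes together with the stage. The labels name neither the histone gene that carries K36M nor the promoter that drives it, and they do not say whether the 2 libraries of a group came from separate cultures, so every p-value measures only the spread between these libraries.

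Neurotrophins are secreted growth factors that are best known for the survival and wiring of neurons. Bdnf, Ntf3 and Ntf5 (also written Ntf4) are made as precursors, which furin-like proteases cut to the mature form. The mature factors bind Trk receptor tyrosine kinases, Bdnf and Ntf5 to Ntrk2, and Ntf3 mainly to Ntrk3. All of them, and their precursors, also bind p75, a receptor of the TNF receptor family with an intracellular death domain. p75 works with partners such as sortilin (Sort1), Lingo1 and the Nogo receptor (Rtn4r), and it marks neural crest, glia and some basal epithelial and stromal progenitors.

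Library totals ran between 17507521 and 35622279 counts. The median absolute log2 difference between the 2 libraries of a group, over 16932 genes that passed the count filter, was 0.382 for K36M at d6 and between 0.0736 and 0.199 in the other 13 groups. The K36M d6 pair thus stood apart. For Ngfr, Bdnf, Ntf5 and the pathway total, values at d6 are also given without each of its libraries. Other d6 values, among them those of Sox10, Foxd3, Phb and Sort1, are given with both libraries only. Fibroblast markers were as labelled: the 8 genes summed to 28400 to 28600 CPM (counts scaled to library size by TMM) in K36M MEFs and 21000 to 25600 CPM in WT MEFs at d0. The 6 pluripotent cell markers summed to 4780 to 5130 CPM in K36M iPSCs and 4920 to 5000 CPM in WT iPSCs. The libraries without OKSM carry another library prefix than all the others, so in a comparison with d0 the library set and the OKSM status cannot be told apart.

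Ngfr lies on chromosome 11, at chr11:95430132-95449049 on the minus strand of the mm9 build, and Ntf3 on chromosome 6, at chr6:126051431-126116762 on the minus strand. Ntrk2 lies at chr13:58907957-59235331 on the plus strand and Ntrk3 at chr7:85337248-85723294 on the minus strand. The bases upstream of the starts of Ngfr and Ntf3 are shown because Ngfr is the receptor whose early level chose the set and Ntf3 is the ligand without a count in K36M cells at d6 and d8. The sequences are RefSeq promoters matched once each to mm9, at chr11:95449050-95449262 for Ngfr, which leaves out bases inside the annotated gene, and at chr6:126116763-126117012 for Ntf3, and capitals mark the GC box GGGCGG on either strand.
Ngfr: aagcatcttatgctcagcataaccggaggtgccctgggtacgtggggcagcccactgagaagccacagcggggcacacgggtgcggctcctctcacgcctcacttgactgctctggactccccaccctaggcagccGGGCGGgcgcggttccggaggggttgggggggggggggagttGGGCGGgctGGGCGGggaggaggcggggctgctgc
Ntf3: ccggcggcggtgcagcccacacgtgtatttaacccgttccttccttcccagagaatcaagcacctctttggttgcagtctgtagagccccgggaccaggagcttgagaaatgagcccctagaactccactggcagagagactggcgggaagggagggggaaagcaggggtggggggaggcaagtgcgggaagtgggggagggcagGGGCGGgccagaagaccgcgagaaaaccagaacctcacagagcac
The 213 bases shown for Ngfr hold 3 GC boxes and 14 CpG dinucleotides, and the 250 bases shown for Ntf3 hold 1 GC box and 11 CpG dinucleotides. A GC box was present in 32.7% of 32851 RefSeq promoters of 250 bases, whose median was 6 CpG dinucleotides. None of TATAAA, the AP-1 site TGANTCA, the CRE TGACGTCA or CAGGTG was found on either strand of either sequence, against 12.4%, 6.75%, 1.55% and 17.2% of all promoters. RefSeq promoters were matched for 4 of the 5 genes. Bdnf has 7 annotated starts, at chr2:109514857-109567204 on the plus strand, and the counts do not tell them apart.

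Ngfr was high from d4 to d8 in K36M cells. At d0 it had 5.71 and 5.94 CPM in K36M MEFs, against 5.9 and 6.53 CPM in WT MEFs, and at d2 it had 4.23 and 4.45 CPM in K36M cells, against 1.88 and 2.05 CPM in WT cells. At d4 it stood at 63.4 and 63.8 CPM in K36M cells, against 2.71 and 2.47 CPM in WT cells. The d4 groups were far apart, while at d0 the 2 genotypes overlapped. At d6 Ngfr had 63.9 CPM in each K36M library, against 15.3 and 12.3 CPM in WT cells, and at d8 it had 47.6 and 54.8 CPM in K36M cells, against 32.8 and 33.2 CPM in WT cells. The K36M libraries were thus at their highest at d4 and d6, and the WT libraries at d8. In iPSCs the genotypes overlapped again, with 8.98 and 8.53 CPM in K36M and 8.37 and 10.7 CPM in WT. Without OKSM, MEFs had 3.6 and 3.33 CPM in K36M and 0.908 and 1.09 CPM in WT.

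**Figure D1:**
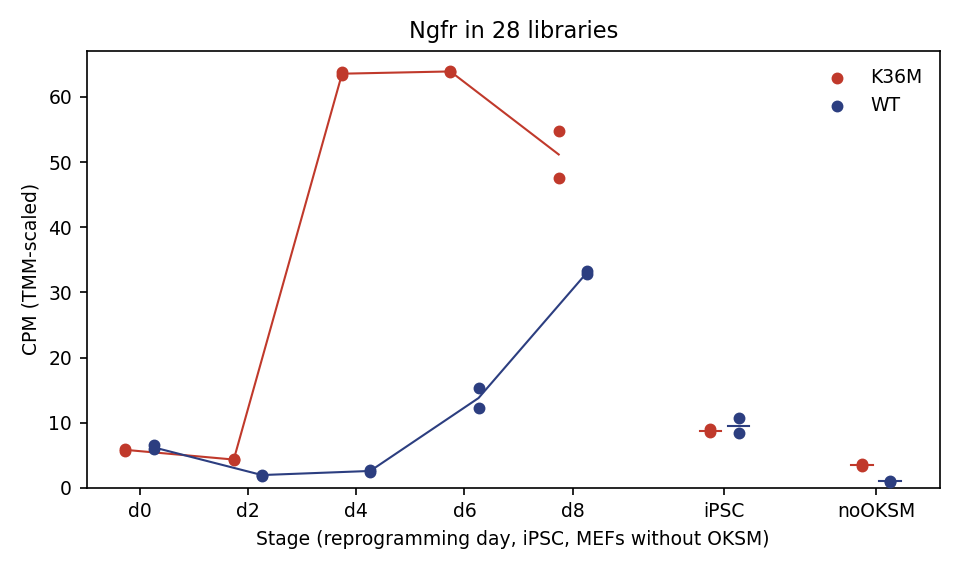
Ngfr in CPM (TMM-scaled, linear axis) by stage, with 1 point per library, K36M in red and WT in blue. Lines join the means of the 2 libraries from d0 to d8 and short bars mark the means of iPSCs and of MEFs without OKSM. K36M lies at 63.4 to 63.9 CPM at d4 and d6, and WT reaches 32.8 to 33.2 CPM at d8.

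The log2 fold change of Ngfr, K36M over WT, was -0.09 ± 0.14 in MEFs at d0 and 1.14 ± 0.17 at d2, then 4.62 ± 0.14 on day d4 and 2.21 ± 0.11 on day d6, and 0.63 ± 0.11 at d8. It was -0.13 ± 0.13 in iPSCs and 1.79 ± 0.19 without OKSM (standard error of the fit, n = 2 libraries each). It was 2.21 at d6 without either K36M d6 library. The genotypes did not overlap at 5 of 7 stages, but the share of all genes without overlap is not given and nothing is read from this count. Over all 16932 genes tested, 15.9% differed between K36M and WT in d0 MEFs, 20.1% in d2 cells, 52.9% in d4 cells, 70.9% in d6 cells, 60.6% in d8 cells, 1.25% in iPSCs and 35% without OKSM (edgeR quasi-likelihood test, adjusted p below 0.05), and since Ngfr was chosen on this contrast nothing is read from its place among them. Relative to K36M MEFs at d0, Ngfr in K36M cells was -0.43 ± 0.15 on the log2 scale at d2, then 3.45 ± 0.12 at both d4 and d6, and 3.13 ± 0.12 at d8. In bulk RNA, more cells with Ngfr and more Ngfr RNA per cell cannot be told apart.

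The WT time course of Ngfr was tested. The choice of genes named levels in K36M cells, but WT cells were the other side of the contrast behind it. The p-values of the chosen genes in WT cells are thus not independent of the choice. Ngfr fell at d2, to 1.96 CPM against 6.22 CPM in WT MEFs at d0 (log2 fold change -1.66 ± 0.16, edgeR adjusted p = 5.87e-09), and was still lower at d4 (-1.27 ± 0.16, edgeR adjusted p = 2.17e-07). It was higher than at d0 at d6 (1.15 ± 0.13, edgeR adjusted p = 6.52e-08) and at d8 (2.41 ± 0.12, edgeR adjusted p = 5.85e-14), so a dip came before the rise. WT iPSCs were slightly above WT MEFs at d0 (0.62 ± 0.13, edgeR adjusted p = 0.000203). WT MEFs without OKSM were below those at d0 (-2.64 ± 0.18, edgeR adjusted p = 1.13e-09), the lowest Ngfr level of the 14 groups.

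Other markers of cells known to carry p75 were measured beside Ngfr. The 11 neural crest and glia markers summed to 48.6 to 50.6 CPM in K36M and 6.47 to 7.96 CPM in WT at d4, to 66.6 to 66.9 CPM in K36M and 11.5 to 14.8 CPM in WT at d6, and to 109 to 113 CPM in K36M and 32.6 to 34.5 CPM in WT at d8. Most of that sum was Erbb3, a neuregulin receptor, with 45.9 and 43.8 CPM in K36M cells and 1.64 and 1.55 CPM in WT cells at d4. Sox10, the defining transcription factor of neural crest and glia, had 0.0984 and 0 CPM in K36M cells and 0.106 and 0.0634 CPM in WT cells at d4, and S100b was at 0 in K36M cells at d4. At d6 Sox10 had 0.578 and 0.522 CPM in K36M cells, against 0.0459 and 0.144 CPM in WT cells (edgeR adjusted p = 0.00639), and at d8 0.863 and 0.387 CPM in K36M cells, against 0.166 and 0 CPM in WT cells (edgeR adjusted p = 0.000852). Foxd3, another neural crest factor, was also higher in K36M at d6 and d8, with 1.88 and 4.14 CPM in K36M cells, against 0.047 and 1.18 CPM in WT cells, on average (edgeR adjusted p = 2.45e-05 and 0.000385). Its K36M d6 libraries differed, at 3.24 and 0.522 CPM, and it was highest in iPSCs, at 18.5 CPM in both genotypes. Tfap2a and Pax3 lay lower in K36M, with 1.315 and 0.0222 CPM at d6, against 4.12 and 1.345 CPM in WT cells. At d8 they had 1.2 and 0.241 CPM in K36M cells, against 8.22 and 1.76 CPM in WT cells. Of 10 tested markers 3 were higher and 2 lower at d6 and at d8, while 70.9% and 60.6% of all genes differed. The 6 basal epithelium markers summed to 622 to 646 CPM in K36M cells and 372 to 457 CPM in WT cells at d4, but at d8 to 500 to 502 CPM in K36M cells and 673 to 713 CPM in WT cells. Among them Krt14 and Krt5, the keratins of basal cells, had 16.9 and 13.4 CPM in K36M cells, against 0.318 and 0.148 CPM in WT cells, on average at d4. Trp63, a transcription factor of basal cells, was at 0 in K36M cells at d4. Krt14 and Krt5 thus made up little of either d4 sum, most of which came from other genes of the list. Pericyte markers summed to 105 to 108 CPM in K36M cells and 59.5 to 77.5 CPM in WT cells at d4. By the test 1 of 6 was higher and 2 lower, with a median log2 fold change of -0.488. Neuron markers summed to 212 to 217 CPM in K36M cells and 233 to 243 CPM in WT cells at d4. Of these 8, 4 were higher and 2 lower, with a median of 0.974, while 52.9% of all genes differed. Both sums thus ran against the median of their list, and no direction is read from them. The part of any of these cell types in the Ngfr level was not tested.

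Per length of annotated exons, Ngfr was far above the Trk receptor genes. At d4 it reached 18.4 CPM per kb in K36M cells and 0.752 CPM per kb in WT cells. Ntrk2, the Bdnf receptor, was at 0.00319 CPM per kb in K36M cells and 0.00701 CPM per kb in WT cells at d4. Ntrk3, the Ntf3 receptor, was at 0.0233 CPM per kb in K36M cells at d4 and had no count in WT cells. Ntrk2 and Ntrk3 were near the floor of detection throughout, with 0 to 20 and 0 to 19 counts per library, and all 5 genes passed the count filter, Ntrk2 and Ntrk3 only through a few libraries.

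The Trk receptor counts were mostly highest in MEFs and iPSCs. Ntrk3 had 18 and 8 counts in K36M MEFs at d0, against 8 and 14 counts in WT MEFs. It had 4 and 1 counts in K36M cells at d4, against 0 and 0 counts in WT cells, and no count in either genotype at d6. Without OKSM Ntrk3 had 1 and 0 counts in K36M MEFs, against 19 and 11 counts in WT MEFs, a ratio of 0.0358 (95% counting interval 0.000877 to 0.215, which covers counting error only). Ntrk2 was highest in iPSCs, with 6 and 11 counts in K36M and 11 and 20 counts in WT, and in 1 K36M library at d8, which had 16 counts while the other had 4. In WT cells, Ntrk3 had 1, 0, 0 and 1 counts summed over 2 libraries at d2, d4, d6 and d8, against 22 at d0, which is at least 9.66-fold lower at d4 and at least 8.16-fold lower at d6 by the floor of 3 counts over a group. Ntrk3 passed the count filter mainly through its MEF libraries, so a lower count elsewhere is built in and no p is given. Ntrk2 fell at d6, with 1 count against 12 at d0 (edgeR adjusted p = 0.0197, ratio 0.0749, counting interval 0.00175 to 0.506), a call that was lost without WT d0 replicate 2 (adjusted p = 0.215), without WT d6 replicate 2 (adjusted p = 0.12) and with DESeq2 (adjusted p = 0.0522). In WT iPSCs Ntrk2 had 31 counts over the 2 libraries, against 12 at d0. Ntrk2 passed the count filter mainly through iPSC libraries, so a higher count there is built in and no p is given.

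Bdnf, brain-derived neurotrophic factor, was lower in K36M than in WT cells at every stage but iPSCs, also in MEFs at d0, where Ngfr overlapped. It had 42.5 and 41.8 CPM in K36M MEFs at d0, against 84.5 and 86 CPM in WT MEFs. At d2 it had 9.43 and 10.3 CPM in K36M cells, against 15.6 and 15.4 CPM in WT cells. It was lower still later in K36M cells, with 2.8 and 2.21 CPM at d4, 1.64 and 2.01 CPM at d6 and 1.87 and 2.13 CPM at d8, against 18.5 and 20.5 CPM, 20.4 and 22.5 CPM, and 16.3 and 16 CPM in WT cells. Fibroblast markers were also lower in K36M. The 8 genes summed to 378 to 388 CPM in K36M and 1490 to 1730 CPM in WT at d4. They summed to 158 to 204 CPM in K36M and 1760 to 1810 CPM in WT at d6, and to 102 to 118 CPM in K36M and 1920 to 2030 CPM in WT at d8. By the test 6, 6 and 7 of 8 were lower and 1, 1 and 0 higher, while 52.9%, 70.9% and 60.6% of all genes differed. The 6 pluripotent cell markers, all higher in K36M at these days, summed to 544 to 570 CPM in K36M and 133 to 195 CPM in WT at d4. The part of these shifts in the levels of Bdnf and Ntf3 was not tested. In iPSCs the order turned, with 7.21 and 7.58 CPM in K36M and 4.51 and 5.09 CPM in WT, and without OKSM MEFs had 33 and 39.6 CPM in K36M and 104.7 and 109.6 CPM in WT. The groups did not overlap at any of the 7 stages. The share of all genes without overlap is not given, so nothing is read from this count.

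The log2 fold change of Bdnf, K36M over WT, was -1.02 ± 0.10 in MEFs at d0 and -0.65 ± 0.11 at d2. It was -2.96 ± 0.13 for d4, -3.55 ± 0.14 for d6 and -3.01 ± 0.14 for d8, and 0.62 ± 0.13 in iPSCs and -1.56 ± 0.10 without OKSM (standard error, n = 2 each). Leaving out the first or the second K36M d6 library gave -3.42 and -3.71 at d6. Relative to K36M d0, Bdnf was -2.10 ± 0.11 for d2, -4.07 ± 0.13 for d4, -4.52 ± 0.14 for d6, -4.39 ± 0.14 for d8, -2.51 ± 0.11 in iPSCs and -0.21 ± 0.10 without OKSM. In WT cells Bdnf fell at d2 to 15.5 CPM against 85.2 CPM at d0 (-2.46 ± 0.10, edgeR adjusted p = 3.39e-15) and stayed lower at d4 (-2.12 ± 0.10, edgeR adjusted p = 2.21e-14), d6 (-1.99 ± 0.10, edgeR adjusted p = 6.89e-14) and d8 (-2.40 ± 0.10, edgeR adjusted p = 2.49e-15). The WT iPSCs were lowest (-4.14 ± 0.12, edgeR adjusted p = 1.3e-18). Without OKSM, WT Bdnf was higher than at d0 (0.33 ± 0.10, edgeR adjusted p = 0.033), a call that no leave-one-out fit kept (adjusted p between 0.0854 and 0.207).

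Ntf3, neurotrophin-3, showed the same order of genotypes as Bdnf at lower levels. It had 2.59 and 2.99 CPM in K36M MEFs at d0, against 6.44 and 4.8 CPM in WT MEFs, and 0.322 and 0.325 CPM in K36M cells at d2, against 0.49 and 0.347 CPM in WT cells. At d4 it had 1 count over the 2 K36M libraries and 7 over the WT libraries, a ratio of 0.173 whose counting interval, 0.00384 to 1.35, includes equality. At d6 and d8 no count was found in K36M cells, against 19 and 20 counts in WT cells, which is at least 7.06-fold and at least 4.51-fold lower. Without OKSM it had 2.12 and 3.36 CPM in K36M MEFs, against 11.1 and 11 CPM in WT MEFs. The genotypes were apart in the same direction at every stage but iPSCs, though nothing is read from this, since the share of all genes without overlap is not given. In iPSCs 1 K36M library had 0.803 CPM and the other 0.104 CPM, against 0.2 and 0.207 CPM in WT. The log2 fold change of Ntf3 was -1.01 ± 0.28 at d0, -0.36 ± 0.60 at d2 and -2.0 ± 0.26 without OKSM. In WT cells Ntf3 was lower than at d0 at every later day and in iPSCs. The log2 fold change was -3.73 ± 0.36 for d2, -5.29 ± 0.45 for d4, -3.63 ± 0.38 for d6, -4.08 ± 0.37 for d8 and -4.75 ± 0.43 in iPSCs. Ntf3 passed the count filter mainly through its MEF libraries, so a lower count in these groups is partly built in and no p is given for them. It was higher than at d0 without OKSM (0.98 ± 0.24, edgeR adjusted p = 0.0143), a call lost without WT d0 replicate 2 (adjusted p = 0.123), without either WT library that lacked OKSM (adjusted p = 0.101 and 0.079) and with DESeq2 (adjusted p = 0.054).

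Ngfr and Bdnf thus passed the test against WT d0 at each WT stage, though the calls of Bdnf and Ntf3 without OKSM were not stable. These p-values are not independent of the choice of genes, so nothing is read from their number. Ntf3 is given below by direction only. Ntrk2 passed only at d6, and Ntrk2 and Ntrk3 are left out of this summary. Of all genes, 57.8% differed from WT d0 for d2, 57.4% for d4, 59% for d6, 64% for d8, 77.5% for iPSCs and 8.2% without OKSM. On d2 and d4 Ngfr, Bdnf and Ntf3 were lower. From d6 on and in iPSCs Ngfr was higher and Bdnf and Ntf3 lower. Without OKSM Ngfr was lower and Bdnf and Ntf3 higher.

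Ntf5, neurotrophin-4 and not one of the chosen genes, was higher in K36M than in WT cells from d2 to d8. It had 1.16 and 1.24 CPM in K36M MEFs at d0, against 2.09 and 1.17 CPM in WT MEFs, which overlapped (-0.43 ± 0.24, edgeR adjusted p = 0.285). At d4 it had 6.3 and 6.81 CPM in K36M cells, against 0.477 and 0.476 CPM in WT cells (3.77 ± 0.23, edgeR adjusted p = 2.76e-12), and at d6 11.6 and 10.2 CPM in K36M cells, against 1.15 and 1.2 CPM in WT cells (3.21 ± 0.19, edgeR adjusted p = 1.11e-12). The difference at d6 was 3.11 and 3.29 without the first and the second K36M d6 library. It was higher in K36M at d2 (1.45 ± 0.36, edgeR adjusted p = 0.00749), at d8 (1.89 ± 0.18, edgeR adjusted p = 3.43e-09) and without OKSM (1.83 ± 0.19, edgeR adjusted p = 5.7e-08). The call at d2 was lost without K36M d2 replicate 1 (adjusted p = 0.172) and without WT d2 replicate 2 (adjusted p = 0.115). In iPSCs it did not differ by the test (-0.03 ± 0.20, edgeR adjusted p = 0.987). In WT cells Ntf5 fell relative to d0 at d2 (-2.52 ± 0.31, edgeR adjusted p = 2.72e-07) and d4 (-1.76 ± 0.28, edgeR adjusted p = 1.05e-05), while at d6 and d8 it did not pass (edgeR adjusted p = 0.133 and 0.627), though at d6 it was called lower without WT d0 replicate 2 (-0.83, adjusted p = 0.0178).

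**Figure D2:**
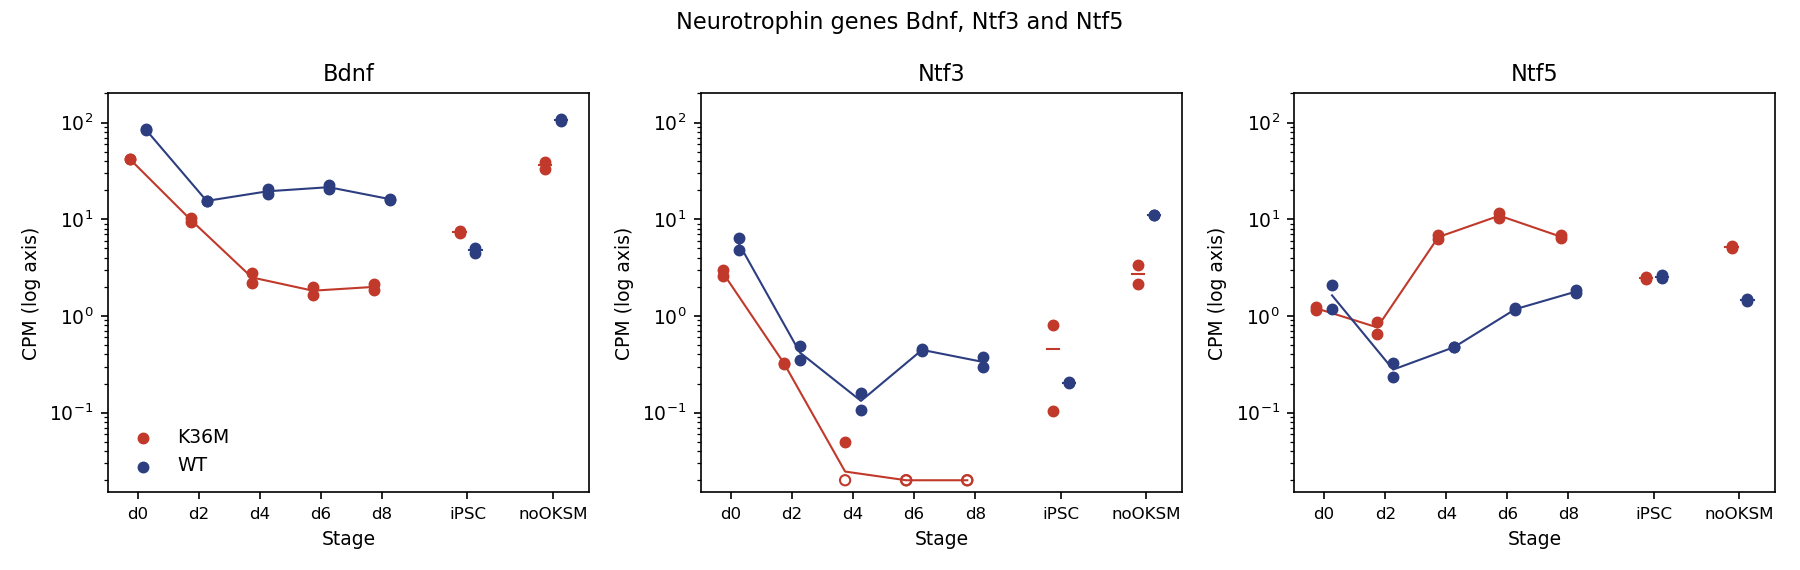
Bdnf, Ntf3 and Ntf5 in CPM on a log axis by stage, with 1 point per library, K36M in red and WT in blue, and lines and bars at the means of 2 libraries. Open circles are libraries with no count, drawn at 0.02 CPM. Bdnf and Ntf3 lie lower in K36M from d0 to d8, and Ntf5 lies higher from d2 to d8.

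Per length, the order of Bdnf, Ntf3 and Ntf5 at d4 also differed between the genotypes. In K36M cells Ntf5 stood at 3.34 CPM per kb, against 0.428 for Bdnf and 0.0172 for Ntf3. In WT cells Bdnf stood at 3.33 CPM per kb, against 0.243 for Ntf5 and 0.0928 for Ntf3. At d0 Bdnf was the highest of these genes in both genotypes, with 7.2 CPM per kb in K36M MEFs and 14.6 CPM per kb in WT MEFs. These are group means of 2 libraries, and their order was not tested.

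Around the ligands and receptors, 70 genes in 7 lists were followed, of which 68 passed the count filter. At d4, 11 were higher and 25 lower in K36M, against 52.9% of all genes that differed, with a median log2 fold change of -0.24 over the lists and 0.02 over all genes. Of 7 measured proteases that process neurotrophin precursors, 1 was higher and 5 lower. Pcsk5 had 2.43 CPM in K36M cells and 14.5 CPM in WT cells (-2.58 ± 0.16, edgeR adjusted p = 4.66e-12), Pcsk6 47.8 CPM in K36M cells and 79.5 CPM in WT cells, and Plat, tissue plasminogen activator, 2 CPM in K36M cells and 4.28 CPM in WT cells (edgeR adjusted p = 9.92e-07 and 0.000209). Pcsk1, a convertase of secretory granules, rose but on 14 counts in K36M cells against 1 in WT cells (edgeR adjusted p = 0.00268), and the call was lost without K36M d4 replicate 2 (adjusted p = 0.0631) or WT d4 replicate 2 (adjusted p = 0.0728).

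Of 9 measured receptors and co-receptors outside the chosen genes, 2 were higher and 5 lower in K36M at d4 (52.9% of all genes differed). Sorl1, a sorting receptor of the sortilin family, had 11.4 and 12.4 CPM in K36M cells, against 0.849 and 0.983 CPM in WT cells (3.67 ± 0.23, edgeR adjusted p = 6.51e-12). Sorcs1, of the same family, went the other way, with 0.148 and 0.141 CPM in K36M cells, against 5.52 and 7.36 CPM in WT cells (-5.45 ± 0.32, edgeR adjusted p = 1.79e-12). Rtn4r rose (1.49 ± 0.33, edgeR adjusted p = 0.000513) and Lingo1 fell (-1.16 ± 0.28, edgeR adjusted p = 0.00117). Sort1, the p75 co-receptor for neurotrophin precursors and named here after its values were seen, had 19.3 and 17.1 CPM in K36M cells, against 32.7 and 40 CPM in WT cells (-1.0 ± 0.12, edgeR adjusted p = 1.22e-07). It was lower at d6 and d8 too (-1.55 ± 0.12 and -1.12 ± 0.11, edgeR adjusted p = 5.14e-11 and 1.48e-08). Without OKSM Sort1 was higher in K36M MEFs, at 33 CPM against 25.7 CPM in WT MEFs (0.36 ± 0.11, edgeR adjusted p = 0.0156), a call lost without K36M replicate 1 (adjusted p = 0.213) and without WT replicate 1 or 2 of that group (adjusted p = 0.0521 and 0.108). Sort1 shares 329 exon bases with Gm12523, a transcript on the other strand, and the strand setting of the counting is not given in the sources used here.

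Most of the p75 cytoplasmic partners moved little at d4. Of 16 genes 2 were higher and 5 lower (52.9% of all genes differed), and the median was -0.09. Bex1, an adaptor that binds the p75 intracellular domain, was the exception in size, with 519.6 and 577 CPM in K36M cells, against 145.2 and 119.8 CPM in WT cells (2.05 ± 0.14, edgeR adjusted p = 2.67e-11). It was also higher in K36M without OKSM (2.61 ± 0.23, edgeR adjusted p = 7.09e-09). Bex1 has a close paralog, Bex2, and how reads that match both were counted is not stated. Genes of the gamma-secretase complex, which cuts p75 in the membrane, were lower, with Psen2 at 9.68 CPM in K36M cells and 20.4 CPM in WT cells (-1.07 ± 0.15, edgeR adjusted p = 3.19e-06) and Ncstn at 91.4 CPM in K36M cells and 134.9 CPM in WT cells (-0.56 ± 0.08, edgeR adjusted p = 2.69e-06). Maged1, which binds p75 in apoptosis, was also lower (-0.48 ± 0.08, edgeR adjusted p = 2.07e-05).

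Of 16 Trk signalling adaptors 2 were higher and 4 lower in K36M at d4 (52.9% of all genes differed). Irs1, which docks insulin and Trk receptors, had 8.54 CPM in K36M cells and 36 CPM in WT cells (-2.08 ± 0.30, edgeR adjusted p = 6e-06), and Frs3, a docking protein of Trk and FGF receptors, 7.47 CPM in K36M cells and 2.04 CPM in WT cells (1.84 ± 0.18, edgeR adjusted p = 1.45e-08). Gab1 and Sh2b2 were lower (-1.06 ± 0.14 and -0.92 ± 0.14, edgeR adjusted p = 5.9e-07 and 1.24e-05). Of 10 immediate-early and response genes 2 were higher and 2 lower, against the same 52.9%. Arc, an immediate-early gene of synapses, had 5.68 CPM in K36M cells and 0.911 CPM in WT cells (2.63 ± 0.20, edgeR adjusted p = 1.23e-10), while Vgf, a precursor of secreted neuropeptides, had 0.917 CPM in K36M cells and 4.13 CPM in WT cells (-2.16 ± 0.28, edgeR adjusted p = 6.56e-07). Fos, a subunit of AP-1, was lower (-1.85 ± 0.28, edgeR adjusted p = 7.79e-06). Dusp6 was higher (0.28 ± 0.10, edgeR adjusted p = 0.0189), a call that no leave-one-out fit kept (adjusted p between 0.0595 and 0.112).

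Of 8 TNF receptor relatives of p75, most of them with a death domain, 1 was higher and 3 lower in K36M at d4, a share near the 52.9% of all genes. Tnfrsf1a, the main TNF receptor, had 31.7 CPM in K36M cells and 90.1 CPM in WT cells (-1.51 ± 0.14, edgeR adjusted p = 5.53e-09). Fas, the receptor of Fas ligand, and Tnfrsf21 were lower as well (-1.17 ± 0.11 and -0.68 ± 0.12, edgeR adjusted p = 5.35e-09 and 4.24e-05). Edar, the ectodysplasin receptor, was the gene called higher, on 4 counts in K36M cells and 0 in WT cells at d4. Its counts were highest in K36M cells at d8, with 20 over the 2 libraries, against 5 in WT cells. Edar thus passed the count filter mainly through K36M libraries, so a higher count in K36M is partly built in and no p is given.

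**Figure D3:**
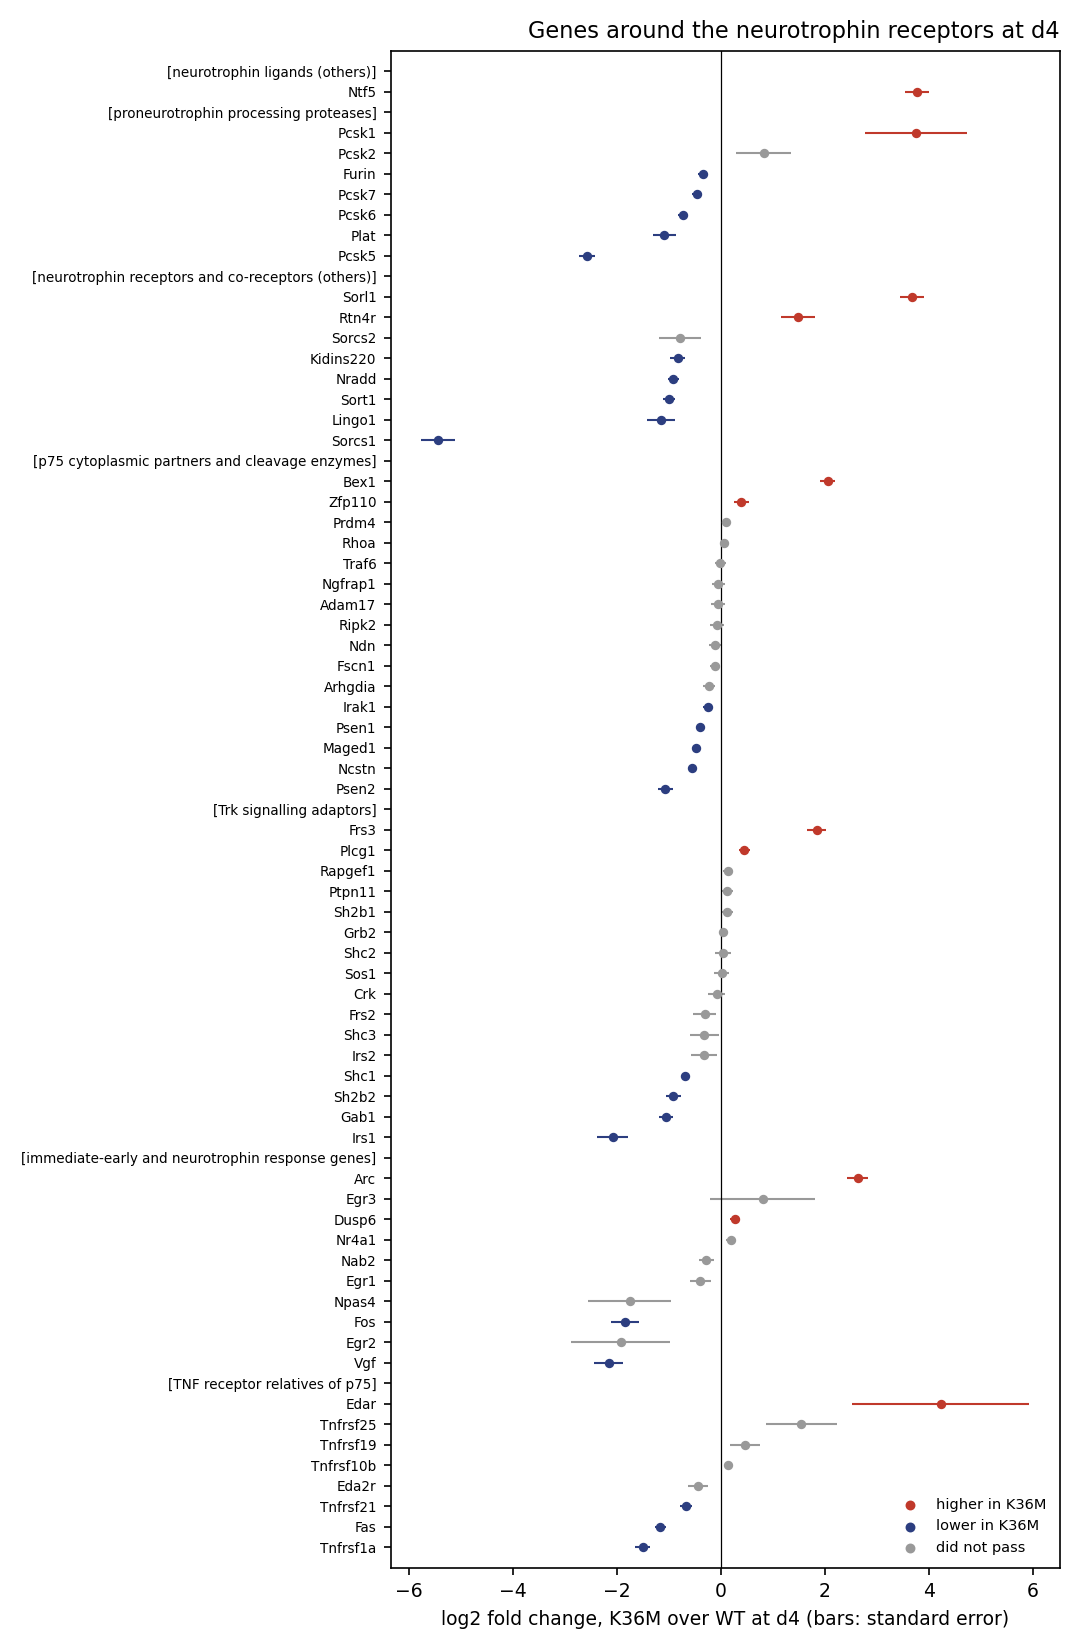
Log2 fold change of K36M over WT at d4 for measured genes of the 7 lists, with its standard error as a bar, and red, blue and grey for genes that were higher, lower or did not pass. The largest falls and rises include Sorcs1 at -5.45, Ntf5 at 3.77 and Sorl1 at 3.67, and most p75 partners and Trk adaptors lie near 0. The place of Edar, set against no WT count, depends on the prior count of the fit.

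The counts of these 68 genes at the other stages stand beside the share of all genes that differed. At d0, 5 were higher and 11 lower in K36M (15.9% of all genes differed), and at d2 8 and 12 (20.1%). At d6, 14 were higher and 42 lower (70.9%), with 59 and 54 genes called without the first and the second K36M d6 library, and at d8 17 and 34 (60.6%). In iPSCs 1 was higher, Fas, and 1 lower, Arc (1.25%). Without OKSM 19 were higher and 25 lower (35%), among them Rtn4r (2.25 ± 0.23, edgeR adjusted p = 6.53e-08) and Ripk2, a kinase that p75 recruits (-1.45 ± 0.12, edgeR adjusted p = 1.97e-09). In WT cells relative to d0, 16 were higher and 31 lower on d2 (57.8% of all genes differed), 21 and 28 on d4 (57.4%), 21 and 26 on d6 (59%), 19 and 28 on d8 (64%), 20 and 37 in iPSCs (77.5%), and 5 and 1 without OKSM (8.2%).

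The genes whose profile was most like that of Ngfr, by Pearson r over the 14 group means of log2 CPM among 11427 genes, were S100a14 (r = 0.937), T (0.927), Cyp2b23 (0.926), Tuft1 (0.926) and Ly6g6c (0.923). S100a14, an S100 protein of epithelia, averaged 20.2 CPM at d4, 37.3 at d6 and 20.5 at d8 in K36M cells, against 0.111, 0.802 and 8.79 CPM in WT cells. T, brachyury, a factor of the primitive streak, averaged 7.23, 24.1 and 13.1 CPM in K36M cells and 0, 0.303 and 1.73 CPM in WT cells at the same days. Tuft1 was the one of the 5 already present in MEFs, with 13 CPM in K36M and 16.5 CPM in WT at d0. Ngfr was nearer to its highest level at d4 than any of the 5, as the profiles show. For Bdnf the most alike genes were Cyr61 (0.987), Ptgs2 (0.979) and Rgag4 (0.979), and for Ntf3 they included Rhob (0.975) and Pcdh9 (0.974). For the sparsely counted Ntrk2 they included Gpc3 and Usp49 (0.892 and 0.89), and for Ntrk3 Actr2, Mtap1s and Tor1aip2 (0.912, 0.897 and 0.894). All points share the same libraries, and these values are descriptions.

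**Figure D4:**
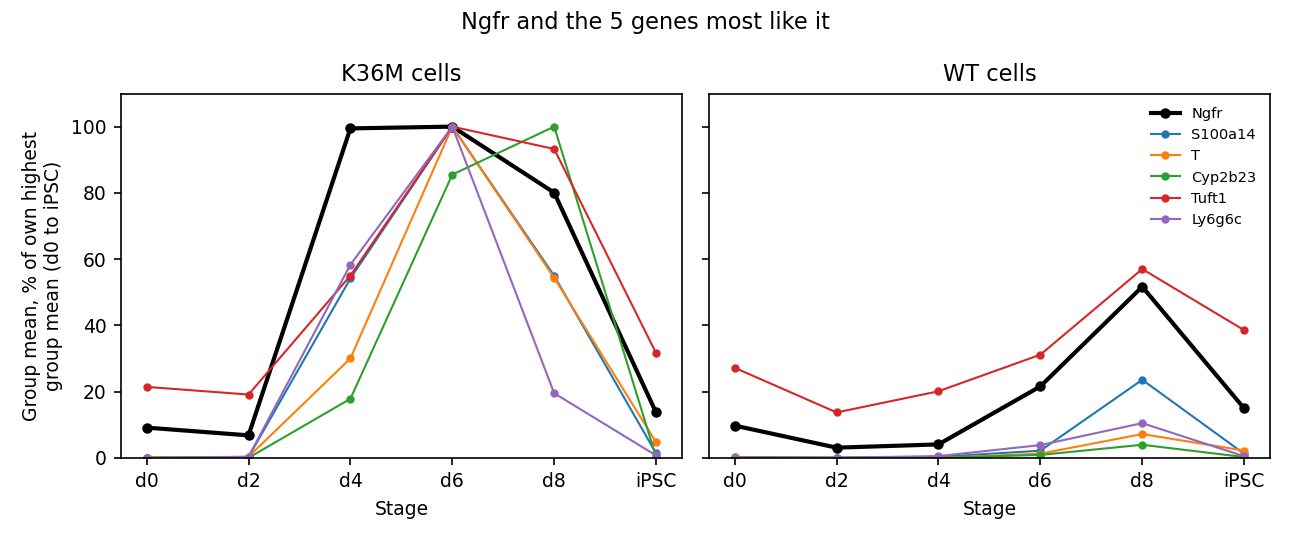
Group means of Ngfr (black) and the 5 genes most like it, each as a percentage of its own highest group mean from d0 to iPSCs, in K36M cells (left) and WT cells (right). In K36M cells Ngfr is at its plateau by d4 while the others are highest at d6 or d8, and in WT cells all 6 are highest at d8.

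At d4 none of the nearest protein-coding genes of Ngfr that were tested was higher in K36M. Nxph3, which lies 54247 bases away, was lower in K36M at d4, with 1.18 CPM against 3.03 CPM in WT cells (-1.36 ± 0.28, edgeR adjusted p = 0.000256), and higher without OKSM (1.10 ± 0.27, edgeR adjusted p = 0.00305). Spop, a ubiquitin ligase adaptor 75411 bases away, had 100.2 and 107.1 CPM in K36M cells at d4, against 257.4 and 270.8 CPM in WT cells (-1.35 ± 0.08, edgeR adjusted p = 1.55e-12), and remained lower at d8 (-1.73 ± 0.08, edgeR adjusted p = 2.32e-14). Phb, prohibitin, 79221 bases away on the other side, did not pass at d4 (0.05 ± 0.10, edgeR adjusted p = 0.709), was higher in K36M at d6 (0.47 ± 0.10, edgeR adjusted p = 0.000331) and lower at d8 (-0.32 ± 0.10, edgeR adjusted p = 0.0116). Gm9796, 109158 bases away, did not pass the count filter.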

How the data were processed

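Polyadenylated RNA of 28 libraries was sequenced with a strand-marking NEBNext kit, per the labels' protocols. The values used are whole-number read counts per gene in 1 table deposited by the authors. The submitters' processing notes name STAR 2.5.0, HTSeq 0.11.2, edgeR and the mm9 build, while the annotation, the strand setting and the handling of multiply mapped reads are not stated in the labels or the notes. Columns were matched to samples by library number, genotype, stage and replicate.

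From these counts, CPM were computed with TMM factors, and genes were kept by filterByExpr (minimum count 10, minimum total 15), which left 16932 of 37620 genes. All 14 groups entered 1 robust quasi-likelihood fit in edgeR 4.0.16 (R 4.3.3) with 14 residual degrees of freedom, and p-values were adjusted by Benjamini-Hochberg over all genes tested at a threshold of 0.05. With 2 libraries per group the fit shares its estimate of spread across groups. On simulated counts it recovered 94 of 100 genes changed by 1 and 99 of 100 changed by 2 on the log2 scale between K36M and WT at d4, with 10 of 16587 unchanged genes called. The changed genes were drawn from those with at least 1 CPM in WT cells at d4. The recovery thus does not cover sparser genes such as Ntf3, Ntf5, Ntrk2 and Ntrk3. The simulation took its spread from the fit itself and changed far fewer genes than were called in the data. Counting intervals are exact at 95%, and the floor is 3 counts over a group. Positions come from GENCODE vM1 on mm9, which matched 37205 of 37620 identifiers, and promoter letters from RefSeq (GRCm38.p6) matched to mm9. Likeness used group means of log2 CPM with prior count 2 among genes with a group mean of at least 5 CPM.

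The chosen genes and the lists of pathway and marker genes were selected with earlier results of these data known. Named genes were the 5 chosen ones, up to 4 pathway genes per list and comparison by size among those called, the genes most like each chosen gene, and the 2 nearest protein-coding genes on each side of Ngfr. Alternatives were relative log expression factors, DESeq2 1.42.0, no filter, a fit of only the 2 groups compared, the replicate number as a block, and leaving out each library. Some genes of these lists and profiles are counted in the totals but not reported here by name.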

Additional observations from a re-analysis of the deposited data

Results flagged for a closer look

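Some changes ran in opposite directions in the 2 genotypes or stages. These differences between differences were not tested, and each value is a difference of 2 log2 fold changes. From d0 to d4 Ngfr changed by 3.45 in K36M and by -1.27 in WT, a difference of 4.72, and Ntf5 by 2.44 in K36M and by -1.76 in WT, a difference of 4.2. Between d0 and MEFs without OKSM, Bdnf changed by -0.21 in K36M and by 0.33 in WT, a difference of -0.54.

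Bdnf was higher in K36M than in WT only in iPSCs among the 7 stages. The genotypes did not overlap there, but the share of all genes without overlap is not given and nothing is read from this. The 8 fibroblast markers summed to 1120 to 1340 CPM in K36M iPSCs and 814 to 1300 CPM in WT iPSCs, and their part in the Bdnf level was not tested. For Bdnf the K36M minus WT difference in iPSCs exceeded that at d0 by 1.64, at d2 by 1.27, at d4 by 3.58, at d6 by 4.17, at d8 by 3.63 and without OKSM by 2.18. These values were not tested.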

How the results depend on the processing

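Under relative log expression factors and under the replicate block, every named gene that was rerun kept its direction and, where tested, its side of the threshold. Counts of calls stayed within 1.5 times. Not every named gene was rerun, and Sox10, Foxd3 and Phb at d6 were not. Replicate numbers shared only a number, with deviations of same-numbered libraries correlated between -0.057 and 0.131 by stage and between -0.22 and 0.215 over all pairs of groups. With the replicate block 37 pathway genes were called at d4, K36M against WT. In a fit of only the 2 groups compared, 6818 genes and 42 pathway genes were called at d2, 7731 genes at d6, and 1397 genes and 10 pathway genes in iPSCs, K36M against WT. Without the filter 447 genes and 5 pathway genes were called in iPSCs, and 10 pathway genes in WT without OKSM against d0, where DESeq2 called 11, and DESeq2 called 4 pathway genes in iPSCs. Bdnf in WT without OKSM against d0 lost its call without the filter (0.33, adjusted p = 0.0817) and with only 2 groups (0.32, adjusted p = 0.0524), Ntf3 there with DESeq2 (0.97, adjusted p = 0.054), and Ntrk2 in WT at d6 with DESeq2 (-3.73, adjusted p = 0.0522). The cause was not tested.

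Leaving out 1 library at a time, K36M against WT calls ranged from 1200 to 2754 at d0, 2097 to 2253 at d2 and 55 to 251 in iPSCs, and WT calls without OKSM against d0 from 635 to 1379; pathway genes called ranged from 11 to 14 at d2, 1 to 2 in iPSCs and 2 to 7 in WT without OKSM. K36M against WT, Ngfr ranged from 2.06 to 2.38 at d6, 0.52 to 0.73 at d8 and -0.294 to 0.067 in iPSCs, Bdnf from -3.14 to -2.80 at d4, -3.71 to -3.42 at d6 and -1.70 to -1.44 without OKSM, and Ntf3 from -0.94 to 1.95 in iPSCs and -2.38 to -1.72 without OKSM. Against K36M d0, Bdnf ranged from -4.25 to -3.91 at d4, -4.68 to -4.39 at d6 and -0.354 to -0.092 without OKSM. Against WT d0, Bdnf ranged from 0.30 to 0.36 and Ntf3 from 0.78 to 1.20 without OKSM, Ntrk2 from -5.88 to -2.53 at d6 and from 0.60 to 2.08 in iPSCs, and Ntrk3 from -0.37 to 0.38 without OKSM. Some values changed sign, none called where the sign turned: Ntf5 K36M against WT -0.80 to 0.033 at d0 and -0.085 to 0.028 in iPSCs, with 0.001 in one fit, and Ntf5 against WT d0 -0.83 (called, adjusted p = 0.0178) to 0.002 at d6, -0.23 to 0.60 at d8 and -0.52 to 0.31 without OKSM, and Ntrk3 with 0.21 in one fit. Depth limits Ntrk2, Ntrk3 and Ntf3, whose groups often hold under 10 counts.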
